A study of Mus musculus with 48 samples.

Results

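The results below describe the daily course of RNA in the livers of germ-free (GF) female mice, which live without any microbes, across the light-dark cycle. The rule took every GF library of the female count table, which gave 12 of the 48 libraries in the series. The labels give all mice as C57BL/6j, aged 15 to 16 weeks and fed ad libitum, and each liver was taken at zeitgeber time (ZT) 2, 6, 10, 14, 18 or 22, with 2 libraries per ZT. ZT2, ZT6 and ZT10 are taken here as the light phase (6 libraries) and ZT14, ZT18 and ZT22 as the dark phase (6 libraries), following the usual convention of lights off at mid-cycle, since the lighting schedule itself is not given in the sources used here. The groups used for comparison were conventionally raised (convR) females, which carry a gut flora, and GF males, each with 12 libraries over the same ZT, strain and age. Germ-free status is lifelong absence of all microbes, so it does not single out any one organism. Whether the libraries numbered 1 and 2 of a ZT are different animals is not stated. The p-values of the light-dark tests therefore reflect only the spread between these libraries, which may be technical. Those of the rhythm tests, which fit a 24 h cosine curve, also reflect how far the levels depart from that curve.

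The circadian clock of a liver cell is a feedback loop of transcription factors. CLOCK or its paralog NPAS2 pairs with BMAL1, the product of Arntl, at E-box sequences and switches on the Per, Cry, Nr1d and Dbp genes. PER and CRY proteins then shut their own activators down, while REV-ERB proteins (Nr1d1 and Nr1d2) repress, and ROR proteins activate, Arntl, Npas2 and Nfil3. The PAR bZIP factors DBP, TEF and HLF, opposed by NFIL3, act at D-boxes and carry the rhythm to enzymes of bile acid, lipid, sugar and drug metabolism. Feeding time is a strong cue for the liver clock.

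Total counts in the GF female libraries ran from 31637260 to 40973154, and the 10 hepatocyte markers held 126084 to 181682 CPM in sum (a gene's counts scaled to a common library total, which is the unit of every level below), so the libraries carry liver RNA. 3 of the 12 libraries stood apart. Replicate 2 at ZT2, ZT6 and ZT10 held 173 to 186 CPM of Nnt, the mitochondrial nicotinamide nucleotide transhydrogenase, where the remaining 9 GF female libraries held 56.5 to 75.5 and the 12 convR female libraries 54.7 to 70.6. C57BL/6J mice are known to carry a deletion within Nnt that other C57BL/6 substrains lack, so the Nnt level puts the labelled strain of these 3 libraries in doubt, and whether their strain differs was not tested. Their hepatocyte markers summed to 126084 to 128700 CPM, which is below the 164123 to 180432 CPM of the other 3 light libraries and the 159945 to 181682 CPM of the dark libraries. All 3 belong to the light phase, so what sets them apart and the time of day cannot be told apart in the light-dark comparison, and values from the remaining 9 libraries are given beside those from all 12 for the main counts and most named genes. Replicate 1 at ZT22 stood apart in another way, with 437 CPM of pancreas acinar markers in sum against at most 12.9 CPM in the other 11 libraries. In bulk RNA, fewer cells of a type and less RNA per cell cannot be told apart.

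**Figure D1:**
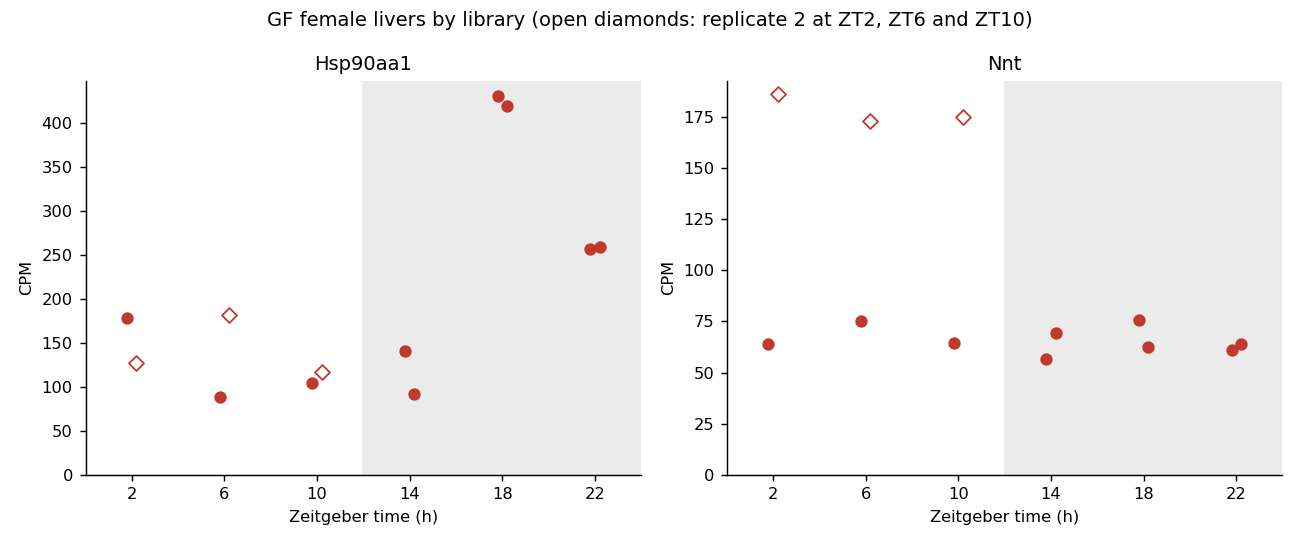
CPM of Hsp90aa1, a cytosolic chaperone (left), and of Nnt (right) in each of the 12 GF female libraries against zeitgeber time in hours, with the dark phase shaded. Replicate 2 at ZT2, ZT6 and ZT10 is drawn as open diamonds and reads 173 to 186 CPM of Nnt, while the other 9 libraries lie between 56.5 and 75.5 CPM.

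The first question was which liver transcripts follow a 24 h rhythm in the absence of microbes. Of 16096 genes tested, 750 were called rhythmic (4.66%, edgeR quasi-likelihood test of a cosine and a sine term, adjusted p under 0.05), and 3538 had an unadjusted p under 0.05. Amplitudes, given throughout as the log2 difference between the peak and the daily mean, had a median of 0.52 and quartiles of 0.37 and 0.83 in the called genes. 133 genes had an amplitude of at least 1 and 22 of at least 2. The median over all genes tested was 0.18. Fitted peaks were most numerous between ZT12 and ZT16, with 173 genes, and between ZT16 and ZT20, with 163, and fewest between ZT4 and ZT8, with 86. A further 143 peaked between ZT0 and ZT4, 89 between ZT8 and ZT12 and 96 between ZT20 and ZT24. 53 of the 750 were predicted gene models or pseudogenes, which are counted but not named.

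Without the 3 libraries that stand apart, 259 genes were called (1.61%), of which 210 were among the 750. ZT12 to ZT16 was then still the fullest window, with 78 genes, followed by ZT0 to ZT4 with 54, ZT20 to ZT24 with 45 and ZT16 to ZT20 with 38, so the place of ZT16 to ZT20 as the next fullest did not hold. ZT8 to ZT12 held 25 genes and ZT4 to ZT8 19. In convR females, 3056 of 16180 genes were called rhythmic (18.9%), and 921 (5.69%) when the libraries of the same ZT and number were left out there. GF males gave 2284 of 17099 (13.4%). Pairs of GF female libraries of 1 ZT differed by a median of 0.168 (ZT22) to 0.304 (ZT18) on the log2 scale, and pairs of convR female libraries by 0.112 to 0.244. These counts come from separate fits and do not test a difference in rhythm. 5 single libraries moved the GF female count by over 1.5 times. It was 482 without ZT10 replicate 1, 374 without ZT14 replicate 1, 451 without ZT6 replicate 2, 406 without ZT14 replicate 2 and 410 without ZT22 replicate 2.

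**Figure D2:**
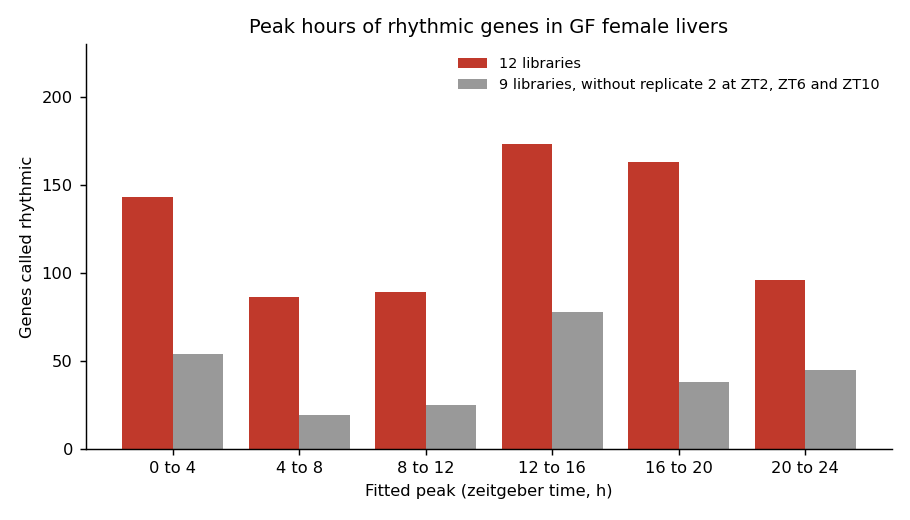
Number of genes called rhythmic in GF female livers by fitted peak, in windows of 4 h of zeitgeber time, with all 12 libraries (red) and with the 9 that remain without replicate 2 at ZT2, ZT6 and ZT10 (grey). The window from ZT12 to ZT16 is the fullest in both, with 173 and 78 genes.

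The clock's own genes were among the largest rhythms. 16 of 19 clock genes on the 3 lists of activators, repressors and PAR bZIP factors were called rhythmic, against 4.66% of all genes tested. Without the 3 libraries 14 of 19 were called, against 1.61% of all genes. In convR females 18 of the 19 were called, against 18.9% of all genes, and in GF males 17, against 13.4%. Rora, Per1 and Cry2 were not called in GF females. Rora, which encodes a nuclear receptor, had an amplitude of 0.20 (edgeR adjusted p = 0.392), and was not called in convR females or GF males either.

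The activators Npas2, Arntl and Clock were called rhythmic and peaked in the first hours of light. Npas2, whose product replaces CLOCK as the partner of BMAL1 (ENSMUSG00000026077, chromosome 1, 39193731 to 39363236, forward strand), read 14.5 and 15.9 at ZT2, 3.84 and 6.79 at ZT6, 0.32 and 0.405 at ZT10, 0.198 and 0.0998 at ZT14, 0.296 and 0.834 at ZT18 and 8.24 and 9.32 at ZT22 CPM. The ZT2 and ZT22 libraries are all above every other, and the ZT14 libraries are the lowest. Npas2 had the lowest p of any gene (amplitude 3.51 ± 0.20, peak ZT1.47 ± 0.183 h, edgeR adjusted p = 5.62e-06; 0.000309 without the 3 libraries). Arntl, which encodes BMAL1 (ENSMUSG00000055116, chromosome 7, 113207465 to 113314126, forward strand), read 47.8 and 46.5 at ZT2, 32.3 and 35.9 at ZT6, 1.75 and 4.6 at ZT10, 0.989 and 1.15 at ZT14, 20.6 and 29.7 at ZT18 and 45.5 and 50.1 at ZT22 CPM. Its ZT6 pair ranked next after ZT2 and ZT22, and the lowest pair lay at ZT14 (amplitude 2.53 ± 0.35, peak ZT0.287 ± 0.514 h, edgeR adjusted p = 0.0148). Without the 3 libraries the adjusted p was 0.0512, just above the threshold, so it was no longer called.

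Clock read 81.1 and 101 at ZT2, 81.7 and 98.4 at ZT6, 37.4 and 48.8 at ZT10, 24 and 27.2 at ZT14, 62.4 and 64.4 at ZT18 and 64.3 and 76.9 at ZT22 CPM. Every library at ZT14 was below every library at other times, and its amplitude was smaller than that of its partners (amplitude 0.78 ± 0.13, peak ZT1.23 ± 0.627 h, edgeR adjusted p = 0.0172; 0.0687 without the 3 libraries).

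Of the 10 repressors, 8 were called rhythmic, with peaks from ZT8.27 (Nr1d1) to ZT21.5 (Cry1). Ciart, which encodes the repressor CHRONO (ENSMUSG00000038550, chromosome 3, 95878503 to 95882251, reverse strand), read 0.229 and 0.506 at ZT2, 0.274 and 0.256 at ZT6, 7.39 and 4.53 at ZT10, 27.3 and 29.1 at ZT14, 5.03 and 2.04 at ZT18 and 0.695 and 1.2 at ZT22 CPM. Both ZT14 libraries were the highest of the 12 and the 4 libraries at ZT2 and ZT6 the lowest (amplitude 3.34 ± 0.34, peak ZT14.2 ± 0.335 h, edgeR adjusted p = 0.000457). Per3 (ENSMUSG00000028957, chromosome 4, 151003652 to 151044665, reverse strand) read 1.98 and 2.94 at ZT2, 2.53 and 1.82 at ZT6, 64.2 and 31.1 at ZT10, 66.2 and 87.1 at ZT14, 31 and 27.4 at ZT18 and 15.2 and 14.7 at ZT22 CPM. It stayed at its floor through ZT6 and was at its highest at ZT14 (amplitude 2.59 ± 0.31, peak ZT14.8 ± 0.444 h, edgeR adjusted p = 0.00416). Per2, a core component of the PER-CRY repressor complex (ENSMUSG00000055866, chromosome 1, 91415982 to 91459324, reverse strand), read 13.4 and 6.92 at ZT2, 4.6 and 4.48 at ZT6, 23.1 and 14.1 at ZT10, 72.4 and 68.3 at ZT14, 57.5 and 76.7 at ZT18 and 17.5 and 19.4 at ZT22 CPM. Its 4 highest libraries were those of ZT14 and ZT18, and its lowest pair that of ZT6 (amplitude 1.96 ± 0.17, peak ZT16.5 ± 0.328 h, edgeR adjusted p = 0.000457). Without the 3 libraries the adjusted p-values of Ciart, Per3 and Per2 were 0.00406, 0.0408 and 0.00689.

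Cry1, the other partner in that complex, read 32.3 and 44.5 at ZT2, 21.6 and 21 at ZT6, 5.22 and 5.39 at ZT10, 21 and 20.7 at ZT14, 60.2 and 55.6 at ZT18 and 71.1 and 93.5 at ZT22 CPM. It had its trough at ZT10 and was highest at ZT22, the latest peak among the repressors (amplitude 1.68 ± 0.16, peak ZT21.5 ± 0.372 h, edgeR adjusted p = 0.00083; 0.00899 without the 3 libraries). Bhlhe40, a repressor that competes for E-boxes, was lowest at ZT6 (17.2 and 25.7 CPM) and highest at ZT14 (236 and 176 CPM). Its rhythm was called with 12 libraries (amplitude 1.43 ± 0.19, peak ZT16.2 ± 0.506 h, edgeR adjusted p = 0.00631) and not with 9 (0.0566). Its paralog Bhlhe41 was highest at ZT10 (6.23 and 5.08 CPM), lay at or under 0.538 CPM in the 8 libraries of ZT2, ZT6, ZT18 and ZT22, and was called in both (amplitude 2.24 ± 0.41, peak ZT11.7 ± 0.648 h, edgeR adjusted p = 0.0115; 0.0391 without the 3).

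Nr1d1, which encodes REV-ERBα, peaked earliest. It read 23.8 and 0.885 at ZT2, 19.8 and 18.4 at ZT6, 64.4 and 46.9 at ZT10, 8.53 and 12.2 at ZT14, 3.95 and 0.457 at ZT18 and 1.93 and 1.85 at ZT22 CPM, with its maximum at ZT10 (amplitude 2.30 ± 0.43, peak ZT8.27 ± 0.695 h, edgeR adjusted p = 0.0283; 0.0311 without the 3 libraries). The pairs at ZT2 and at ZT18 were split, with 1 high and 1 low library each. Nr1d1 overlaps Thra on the opposite strand, and the sources used here do not say whether strand was used in counting. Nr1d2, which encodes REV-ERBβ, read 26.9 and 13.6 at ZT2, 54.1 and 48.3 at ZT6, 153 and 120 at ZT10, 93.4 and 139 at ZT14, 103 and 31.7 at ZT18 and 27.8 and 19.8 at ZT22 CPM and was called in both fits (amplitude 1.46 ± 0.19, peak ZT12.6 ± 0.492 h, edgeR adjusted p = 0.00416; 0.0342 without the 3).

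Per1, another core component of the PER-CRY complex, read 2.16 and 29.5 at ZT2, 10 and 4.15 at ZT6, 21.6 and 10.7 at ZT10, 34.2 and 39.5 at ZT14, 22 and 9.87 at ZT18 and 4.76 and 7.27 at ZT22 CPM, and the 29.5 CPM of ZT2 replicate 2 stand against 2.16 CPM in its partner. With 12 libraries Per1 was not called (amplitude 0.79 ± 0.39, edgeR adjusted p = 0.35), and with 9 it was (adjusted p = 0.00899). The same library was also the higher of its pair in other genes chosen after their values were seen. It held 41.5 against 6.15 CPM of Noct (nocturnin), 287 against 79.7 CPM of Tsc22d3 (the glucocorticoid-induced leucine zipper) and 20.6 against 1.96 CPM of Cdkn1a (the cell cycle inhibitor p21). Noct and Tsc22d3 were likewise called only without the 3 libraries, with adjusted p-values of 0.00971 and 0.00899 against 0.115 and 0.127 with all 12, while Cdkn1a was called only with all 12 (0.0148, and 0.0568 with 9). Cry2, a paralog of Cry1, read 18.9 to 42.6 CPM in light and 29.1 to 43 CPM in dark and was not called rhythmic in either fit (adjusted p = 0.15 and 0.438).

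All 4 PAR bZIP factors were called with 12 and with 9 libraries. Dbp, the activator of D-box genes (ENSMUSG00000059824, chromosome 7, 45705088 to 45710203, forward strand), read 0.941 and 1.26 at ZT2, 4.57 and 2.07 at ZT6, 175 and 124 at ZT10, 99.3 and 141 at ZT14, 14.2 and 6.32 at ZT18 and 5.31 and 4.03 at ZT22 CPM. Its high plateau covered ZT10 and ZT14, its trough lay at ZT2, and its amplitude was among the largest (amplitude 3.48 ± 0.40, peak ZT12.9 ± 0.413 h, edgeR adjusted p = 0.0017; 0.0129 without the 3 libraries). Tef read 21.9 and 45.4 at ZT2, 56.9 and 41.7 at ZT6, 244 and 173 at ZT10, 225 and 290 at ZT14, 195 and 133 at ZT18 and 91.1 and 89.3 at ZT22 CPM and was highest from ZT10 to ZT18 (amplitude 1.52 ± 0.17, peak ZT14.6 ± 0.418 h, edgeR adjusted p = 0.00176; 0.0265 without the 3). Hlf moved less, between 19.8 and 50.8 CPM, and was highest at ZT14 (amplitude 0.59 ± 0.06, peak ZT15.3 ± 0.371 h, edgeR adjusted p = 0.000577; 0.0145 without the 3). Nfil3, the repressor that opposes them (ENSMUSG00000056749, chromosome 13, 52967209 to 52981073, reverse strand), read 65.4 and 64.4 at ZT2, 30.1 and 35.5 at ZT6, 7.22 and 10.7 at ZT10, 7.06 and 10.3 at ZT14, 25.8 and 28 at ZT18 and 43.7 and 49.2 at ZT22 CPM. It ran opposite to Dbp, with its highest pair at ZT2 and its lowest libraries at ZT10 and ZT14 (amplitude 1.54 ± 0.11, peak ZT0.235 ± 0.274 h, edgeR adjusted p = 0.000125; 0.00394 without the 3).

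**Figure D3:**
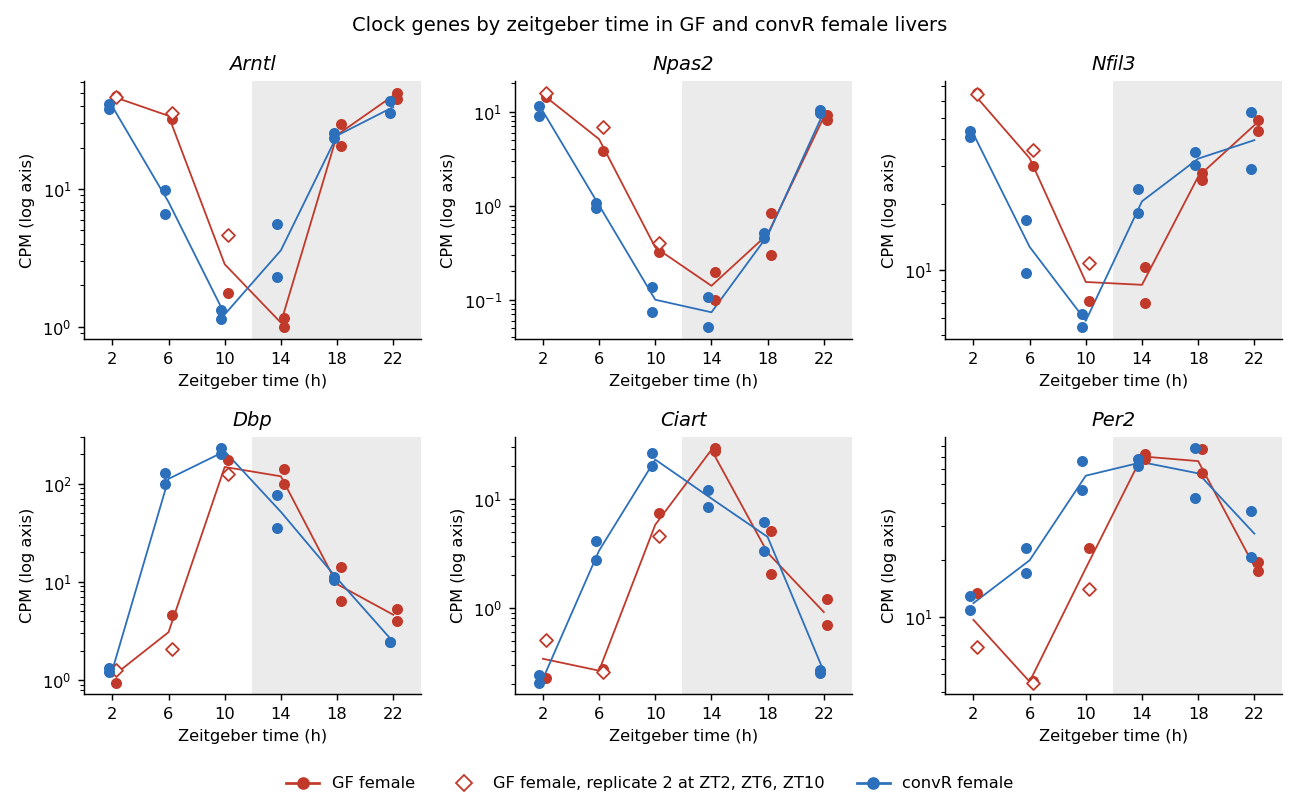
CPM on a log axis of 6 clock genes against zeitgeber time in hours, 1 point per library, for GF females (red) and convR females (blue), with lines through the geometric mean of the 2 libraries of a ZT and the dark phase shaded. Open diamonds are the GF female replicate 2 at ZT2, ZT6 and ZT10. At ZT6 Arntl, Npas2 and Nfil3 lie higher and Dbp, Ciart and Per2 lower in all GF female libraries than in all convR female libraries.

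Of the 16 clock genes with a RefSeq promoter entry, 7 held at least 1 of 3 motifs of the loop within 250 bases of a start site, and 9 held none, among them Arntl, Npas2, Clock, Nr1d1 and Dbp. The 5 shown were chosen because they hold a motif, and their genes peaked from ZT14.2 through ZT21.5 to ZT0.235. Each line gives the 250 bases before the RefSeq transcription start (GRCm38.p6), 5′ to 3′ on the gene's strand. Capitals mark CACGTG (the E-box, the same on both strands), TTATGNAA (a D-box, either strand) or TAGGTCA (the core bound by ROR and REV-ERB proteins, either strand), and no 2 marked motifs overlap. Ciart (chr3:95882229-95882478, reverse strand), Cry1 (chr10:85185055-85185304, reverse strand) and Tef (chr15:81802423-81802672, forward strand) have E-boxes, Per3 (chr4:151044666-151044915, reverse strand) has D-boxes and Nfil3 (chr13:52981040-52981289, reverse strand) has a ROR core.
Ciart: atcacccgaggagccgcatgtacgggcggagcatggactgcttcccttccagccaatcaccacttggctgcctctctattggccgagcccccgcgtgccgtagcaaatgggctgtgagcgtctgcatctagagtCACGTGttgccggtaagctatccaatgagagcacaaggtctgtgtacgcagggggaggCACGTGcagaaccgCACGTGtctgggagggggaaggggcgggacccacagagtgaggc
Tef: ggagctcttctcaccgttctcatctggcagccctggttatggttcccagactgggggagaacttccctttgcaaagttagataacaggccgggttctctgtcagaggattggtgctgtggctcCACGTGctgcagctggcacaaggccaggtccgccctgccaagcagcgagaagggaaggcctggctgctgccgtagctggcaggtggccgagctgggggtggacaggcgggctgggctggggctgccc
Per3: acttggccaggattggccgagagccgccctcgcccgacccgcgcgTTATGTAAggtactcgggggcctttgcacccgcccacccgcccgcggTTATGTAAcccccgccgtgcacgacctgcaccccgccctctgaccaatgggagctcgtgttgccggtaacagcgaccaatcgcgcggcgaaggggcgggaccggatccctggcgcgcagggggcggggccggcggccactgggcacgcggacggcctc
Cry1: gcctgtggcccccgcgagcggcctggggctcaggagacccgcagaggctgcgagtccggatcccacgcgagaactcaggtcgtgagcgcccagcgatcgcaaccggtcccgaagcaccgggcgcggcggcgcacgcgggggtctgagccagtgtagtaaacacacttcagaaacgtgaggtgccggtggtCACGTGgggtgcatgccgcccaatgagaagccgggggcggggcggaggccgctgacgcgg
Nfil3: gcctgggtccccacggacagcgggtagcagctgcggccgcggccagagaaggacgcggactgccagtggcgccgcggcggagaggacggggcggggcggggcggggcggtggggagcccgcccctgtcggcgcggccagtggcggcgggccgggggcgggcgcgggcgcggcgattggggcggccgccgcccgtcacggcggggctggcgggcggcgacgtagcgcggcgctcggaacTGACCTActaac
Ciart holds 3 E-boxes, starting 116, 58 and 44 bases before the start site. Tef holds 1, at 127 bases, and so does Cry1, at 60. Per3 holds 2 D-boxes, at 205 and 158 bases, and Nfil3 has 1 ROR core at 12 bases. Ciart, Tef and Cry1 share the E-box and peaked at ZT14.2, ZT14.6 and ZT21.5.

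Of the 19 clock genes 16 had an entry, and 5 of these held CACGTG, 2 TTATGNAA and 1 TAGGTCA in at least 1 entry. Over all 32851 promoters of the same length, 6.02% held CACGTG, 3.07% TTATGNAA and 2.23% TAGGTCA. Counted by gene, as for the clock genes, the shares were 6.86%, 3.63% and 2.55% of 27025 genes with an entry. Of 573 rhythmic genes with an entry, 11.5% had a promoter with CACGTG, against 9.61% of 11122 tested genes with an entry, and 4.71% against 2.55% had TTATGNAA. Among the 139 that peaked between ZT12 and ZT16 these shares were 18% and 7.91%, and among the 106 that peaked between ZT0 and ZT4 they were 7.55% and 2.83%. For TAGGTCA the shares were alike, at 2.27% of the rhythmic and 2.26% of the tested genes. It was held by 2.16% of the 139 and 2.83% of the 106. A match is a run of letters and does not show that a factor was bound.

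Genes known as outputs of the liver clock followed. 13 of 20 were called rhythmic with 12 libraries and 13 with 9, and 19 of 20 in convR females. Over all genes tested the shares called were 4.66%, 1.61% and 18.9%, in that order. Cdkn1a, Fmo5 and Ppard were called only with 12, and Tsc22d3, Alas1 and Noct only with 9. Wee1, the kinase that holds cells out of mitosis, read 0.966 and 1.42 at ZT2, 0.579 and 0.794 at ZT6, 7.44 and 5.87 at ZT10, 8.11 and 14.2 at ZT14, 9.33 and 7.86 at ZT18 and 4.2 and 3.93 at ZT22 CPM (amplitude 1.94 ± 0.21, peak ZT15.6 ± 0.405 h, edgeR adjusted p = 0.0017; 0.025 without the 3 libraries). Its 4 libraries at ZT2 and ZT6 were the lowest. Usp2, a deubiquitinase, read 1.07 and 4.43 at ZT2, 2.59 and 2.13 at ZT6, 27.2 and 17.2 at ZT10, 48.3 and 59.3 at ZT14, 44.3 and 24 at ZT18 and 8.55 and 9.08 at ZT22 CPM and was highest at ZT14 (amplitude 2.44 ± 0.21, peak ZT15.2 ± 0.323 h, edgeR adjusted p = 0.000457; 0.00406 without the 3). Nampt, the rate-limiting enzyme of NAD salvage, lay at 50.2 to 81.5 CPM with a median of 64.3 in light and 82 to 192 CPM with a median of 128 in dark, without overlap (amplitude 0.83 ± 0.09, peak ZT16.1 ± 0.438 h, edgeR adjusted p = 0.00142; 0.0301 without the 3).

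Gys2, the liver glycogen synthase, was lowest at ZT2 and ZT6 (78.3 to 92.6 CPM) and highest at ZT14 (348 and 683 CPM; amplitude 1.39 ± 0.15, peak ZT14.9 ± 0.407 h, edgeR adjusted p = 0.000861; 0.00467 without the 3 libraries). Por, the electron donor of the cytochromes P450, peaked at ZT14.8 (amplitude 0.99 ± 0.16, edgeR adjusted p = 0.0104; 0.0065 without the 3), and Upp2, a uridine phosphorylase, at ZT13.3 (amplitude 1.21 ± 0.26, edgeR adjusted p = 0.0332; 0.048 without the 3). Alas1, the rate-limiting enzyme of heme synthesis, was at 1408 and 1126 CPM at ZT14 and at most 361 CPM at any other time, a narrow peak that the cosine did not call with 12 libraries (adjusted p = 0.0765) and called with 9 (0.0359). Elovl3, a fatty acid elongase, read 10.4, 8.4 and 4.32 CPM in the 3 libraries and at most 1.8 CPM in the other 9, and was not called (adjusted p = 0.276).

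Other genes with the lowest p-values were Pcsk4, Marveld1, Slc37a4 and Gda. Pcsk4, a proprotein convertase, read 2.64 and 2.5 at ZT2, 2.77 and 3.48 at ZT6, 16.7 and 11.6 at ZT10, 18.3 and 29.1 at ZT14, 8.44 and 9.47 at ZT18 and 3.04 and 2.64 at ZT22 CPM (amplitude 1.75 ± 0.13, peak ZT13.6 ± 0.28 h, edgeR adjusted p = 0.000104). Its ZT10 and ZT14 libraries were the 4 highest. Marveld1 lay at 15.4 to 33.2 CPM with a median of 22.2 in light and 34.6 to 57.1 CPM with a median of 47.2 in dark (amplitude 0.86 ± 0.06, peak ZT16.7 ± 0.277 h, edgeR adjusted p = 0.000104), and Gda, guanine deaminase, at 30.7 to 48.8 CPM with a median of 39.9 and 52.2 to 76.8 CPM with a median of 65 (amplitude 0.64 ± 0.06, peak ZT18.7 ± 0.348 h, edgeR adjusted p = 0.000457). Without the 3 libraries the adjusted p was 0.0029 for Pcsk4, 0.00406 for Marveld1 and 0.012 for Gda. Loxl4, a lysyl oxidase-like enzyme, was among the 10 largest amplitudes, with 1.13 and 1.42 CPM at ZT14 and 42.3 and 20.7 CPM at ZT2 (amplitude 2.35 ± 0.28, peak ZT1.61 ± 0.436 h, edgeR adjusted p = 0.00373; 0.00805 without the 3). The largest fitted amplitude belongs to Ctrb1, the pancreatic protease precursor chymotrypsinogen B, and rests on 1 library. ZT22 replicate 1 held 57.4 CPM and the other 11 at most 0.284 CPM, and without that library the adjusted p was 0.0763. ZT22 replicate 1 is the library with pancreas acinar markers given above.

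Set beside convR females, the clock genes of GF females had later fitted peaks. Of the 16 clock genes called rhythmic in both groups, 15 peaked later in GF females, with a median difference of 1.98 h (median SE of a gene's difference 0.573 h), and 14 by more than 1 h. The differences ran from -0.0499 ± 0.766 h (Nr1d1) to 4.03 ± 0.859 h (Bhlhe40). Arntl peaked at ZT0.287 in GF and ZT22.8 in convR females, Clock at ZT1.23 and ZT22.9, and Npas2 at ZT1.47 and ZT0.296. Among repressors, Per2 peaked at ZT16.5 and ZT14.5, Per3 at ZT14.8 and ZT11.6, and Cry1 at ZT21.5 and ZT19.6. Dbp peaked at ZT12.9 and ZT10.2, and Nfil3 at ZT0.235 and ZT21.6.

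The raw values show the same order. At ZT6, Arntl read 32.3 and 35.9 CPM in GF females against 6.58 and 9.84 CPM in convR females, whereas the groups overlapped at ZT18 (20.6 and 29.7 against 23.4 and 25.6 CPM). Dbp at ZT6 read 4.57 and 2.07 CPM in GF and 97.9 and 127 CPM in convR females, and at ZT14 99.3 and 141 against 34.9 and 75.8 CPM. Ciart was at 0.274 and 0.256 CPM at ZT6 in GF against 2.75 and 4.07 CPM in convR females. In each of these genes the GF and convR libraries at ZT6 did not overlap, replicate 1 included.

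The later peaks were also seen without the 3 libraries. The median over the clock genes was 1.7 h without them and 1.62 h when the libraries of the same ZT and number were left out of both groups. It was 1.88 h from the libraries numbered 1 alone and 2.21 h from those numbered 2 alone, and 1.89 to 2.18 h when each GF female library was left out in turn. Later peaks were not limited to clock genes. Over the 489 genes called rhythmic in both female groups the median difference was 1.61 h, and 85.9% peaked later in GF females. It was 1.24 h over 211 genes, with 82.9% later, without the 3 libraries. Of the clock outputs, 13 were called in both and 12 of these peaked later, with a median of 1.88 h and a range from -0.124 h (Ppard) to 2.85 h (Wee1). GF and convR livers at a ZT were taken as the labels give it, and whether the groups were dissected in 1 session is not given in the sources used here.

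Gene by gene, the test of a changed rhythm between GF and convR females called 0 of 16574 genes (0%, edgeR interaction test, adjusted p under 0.05), with 1940 at an unadjusted p under 0.05 and 272 called by DESeq2. Leaving out GF ZT18 replicate 1 gave 247 calls, GF ZT2 replicate 1 gave 26 and GF ZT18 replicate 2 gave 20. 6 further libraries each gave 1 to 4. Of the 19 clock genes, 13 had an unadjusted p under 0.05, and the lowest adjusted p was 0.0875. The lowest adjusted p of all was that of Ak4, a mitochondrial adenylate kinase, at 0.0547 (peak ZT16.6 in GF and ZT12.5 in convR females). The later peaks are thus values over many genes, of which no single one passed the main edgeR test of changed rhythm with all libraries.

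GF males gave the other germ-free comparison, in which the GF female libraries are the same as above. 15 clock genes were called in both sexes, and all 15 peaked later in GF females, with a median of 2.95 h. Over 494 genes called in both, the median was 2.08 h, and 95.1% were later in females. All 14 clock genes called in both without the 3 libraries peaked later, with a median of 2.45 h, and the median over 214 genes was 1.83 h, with 94.4% later. The test of a changed rhythm called 11 of 17310 genes (0.0635%). These were Ciart, Dbp, Nr1d2, Pcsk4, Susd4, Klf10, Fam214a, Slc2a5, Ak4, Lonrf1 and 1 predicted gene model. Ciart peaked at ZT14.2 in females and ZT11 in males (edgeR adjusted p of the change = 0.0297), and Dbp at ZT12.9 and ZT8.91 (0.0297). Slc2a5, the fructose transporter GLUT5, peaked at ZT13.7 and ZT9.17 (0.0314), and Klf10, a Krüppel-like transcription factor, at ZT14.5 and ZT8.18 (0.0314). None of the 11 was called without the 3 libraries, and the count ran from 0 to 56 as single libraries were left out. Sex coincides with the count table here.

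**Figure D4:**
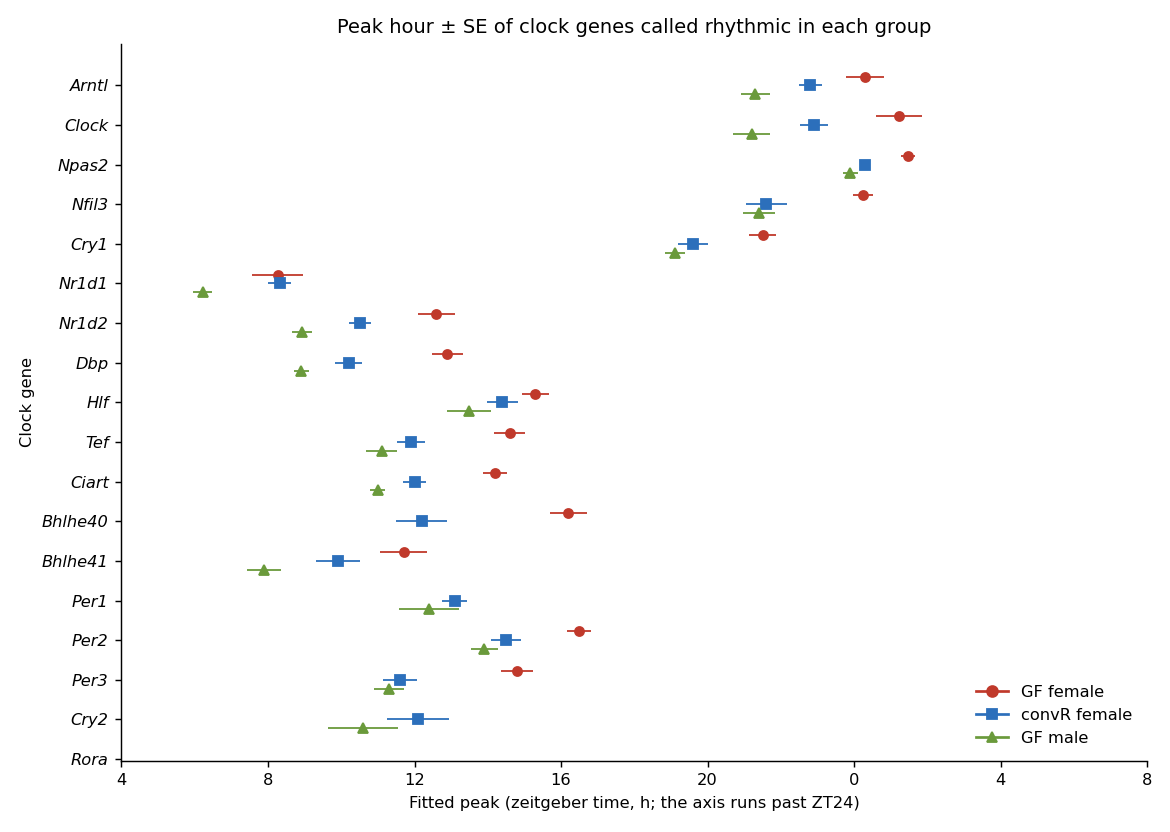
Fitted peak in zeitgeber hours (± SE) of 18 clock genes in GF females (red circles), convR females (blue squares) and GF males (green triangles), drawn where the gene was called rhythmic in that group. Rora is listed without a point, since it was called in no group. The axis runs past ZT24 to keep each gene's peaks together. GF females lie to the right of convR females in the genes drawn for both, except Nr1d1, and to the right of GF males in each gene drawn for both.

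The next comparison set the light phase against the dark phase. 357 genes differed (2.22%, edgeR, adjusted p under 0.05), of which 125 were higher in light (0.777%) and 232 lower in light (1.44%). A further count at an unadjusted p under 0.05 came to 2846. Without the 3 libraries, 70 genes were called (0.435%), 10 higher (0.0621%) and 60 lower (0.373%) in light, and 53 of these were among the 357. All 125 and all 232 kept their direction, with a median log2 difference of 0.63 and 0.59 (12 and 9 libraries) in the genes higher in light and -0.65 and -0.60 in those lower. These genes were chosen from all 12 libraries, which include the 9, so the kept direction is not independent support. 6 of the 125 and 47 of the 232 remained called. Compared with the other 3 light libraries, the 3 libraries were higher in 103 of the 125 genes and in 161 of the 232, against 67.6% of all genes tested. This comparison used CPM, without the TMM scaling of the tests. The TMM factors were 1.06, 1.11 and 1.05 in the 3 libraries and 1, 1.01 and 1 in the other 3. The 125 were called higher in light partly from these 3 libraries, and the part of what sets them apart in these calls was not tested.

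In convR females 2391 of 16180 genes differed between the phases (14.8%), 1189 higher (7.35%) and 1202 lower (7.43%) in light, and 1088 when the libraries of the same ZT and number were left out. Scaling matters for the split in GF females. With library size alone in place of TMM, 70.5% of 396 calls were higher in light, against 35% of 357 under TMM, while the median of all genes moved from 0.012 to 0.122. Directions below are relative to TMM scaling. 8 libraries moved the count by over 1.5 times. It was 234 and 179 without ZT2 replicates 1 and 2, 172 and 90 without ZT10 replicates 1 and 2, 149 and 155 without ZT14 replicates 1 and 2, and 109 and 86 without ZT22 replicates 1 and 2.

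Among the named genes lower in light, Thrsp and Tsku had the largest differences. Thrsp, the lipogenic regulator also known as Spot 14 (ENSMUSG00000035686, chromosome 7, 97412938 to 97417730, reverse strand), lay at 11.9 to 197 CPM with a median of 68.3 in light and 132 to 1591 CPM with a median of 639 in dark, a log2 difference (light minus dark) of -3.68 ± 0.54 (edgeR adjusted p = 0.00997). The ranges overlap through ZT2 replicate 1 and ZT18 replicate 1, whose ZT partners read 78.4 and 1028 CPM, and without the 3 libraries the difference was -3.60 (adjusted p = 0.105). Tsku, which encodes the secreted liver protein tsukushi (ENSMUSG00000049580, chromosome 7, 98350668 to 98361328, reverse strand), lay at 6.5 to 30.5 CPM with a median of 11 in light and 30.4 to 193 CPM with a median of 140 in dark (-3.25 ± 0.25 (edgeR adjusted p = 0.000492); -3.40 (adjusted p = 0.0116) without the 3). Its dark phase range starts just under the highest light library, ZT2 replicate 2. Lingo4 lay at 0.61 to 1.23 CPM with a median of 0.653 and 3.39 to 5.52 CPM with a median of 4.19, without overlap (-2.53 ± 0.21 (edgeR adjusted p = 0.000492); -2.51 (adjusted p = 0.0111) without the 3). Hsd3b1, a steroid dehydrogenase of low level here, lay at 0.0316 to 1.42 CPM with a median of 0.417 and 1.18 to 3.54 CPM with a median of 2.17 and overlapped (-2.13 ± 0.43 (edgeR adjusted p = 0.0377); -2.46 (adjusted p = 0.0478) without the 3).

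Clock genes and their outputs were also at that end. Per3 differed by -2.45 ± 0.20 (edgeR adjusted p = 0.000492), Ciart by -2.56 ± 0.30 (edgeR adjusted p = 0.00293) and Per2 by -2.32 ± 0.19 (edgeR adjusted p = 0.000492), and the outputs Usp2 by -2.39 ± 0.29 (edgeR adjusted p = 0.00388) and Wee1 by -2.16 ± 0.17 (edgeR adjusted p = 0.000492). All 5 were also called without the 3 libraries, with differences of -2.29, -2.61, -2.04, -2.64 and -2.24. Per3, Ciart, Usp2 and Wee1 overlap between the phases, and in each of them both ZT10 libraries lay above both ZT22 libraries. Per2 overlaps with 23.1 CPM in ZT10 replicate 1 against 17.5 CPM in ZT22 replicate 1. Of the 19 clock genes 10 were lower and 2 higher in light, against 1.44% and 0.777% of all genes tested. Without the 3 libraries 7 were lower and 1 was higher, against 0.373% and 0.0621% of all genes. The 1 that was higher is a repressor that was not among the 2.

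At the other end, Npas2 was higher in light by 1.66 ± 0.25 (edgeR adjusted p = 0.0119), and its phases overlap widely, since ZT22 is high and ZT10 low. Tymp, thymidine phosphorylase (ENSMUSG00000022615, chromosome 15, 89371931 to 89377039, reverse strand), lay at 47.5 to 205 CPM with a median of 102 in light and 21.9 to 60.4 CPM with a median of 37 in dark (1.45 ± 0.32 (edgeR adjusted p = 0.0471)). The 3 libraries held 205, 176 and 127 CPM of Tymp and their partners 75.8, 66.9 and 47.5, and without them the difference fell to 0.64 (adjusted p = 0.164). Adck5, a mitochondrial kinase-like gene, showed the same split, with 23.4 to 30.8 CPM in the 3 and 12 to 14.9 CPM in their partners (1.13 ± 0.23 (edgeR adjusted p = 0.0375); 0.59 (adjusted p = 0.128) without the 3).

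Trib3, a stress-induced pseudokinase, was highest at ZT10 (18.3 and 15.8 CPM) and lay at 1.18 to 5.18 CPM in dark (1.32 ± 0.20 (edgeR adjusted p = 0.0116); 1.39 (adjusted p = 0.1) without the 3). Eps8l2, which encodes an actin regulator (ENSMUSG00000025504, chromosome 7, 141338880 to 141363020, forward strand), lay at 36.7 to 68.2 CPM with a median of 59.2 in light and 14.4 to 43.9 CPM with a median of 25 in dark, and was called in both fits (1.06 ± 0.10 (edgeR adjusted p = 0.00146); 0.94 (adjusted p = 0.0168)). Ngfr, the p75 neurotrophin receptor, lay at 5.3 to 9.88 CPM with a median of 8.2 and 1.91 to 6.74 CPM with a median of 3.32 (1.05 ± 0.17 (edgeR adjusted p = 0.0161); 1.08 (adjusted p = 0.1)). Unc93a2, Rfx4 (a transcription factor) and Mrnip were higher in light by 1.42, 1.24 and 1.23, and by 1.34, 1.02 and 1.20 without the 3 libraries, where none of these 3 passed the threshold.

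**Figure D5:**
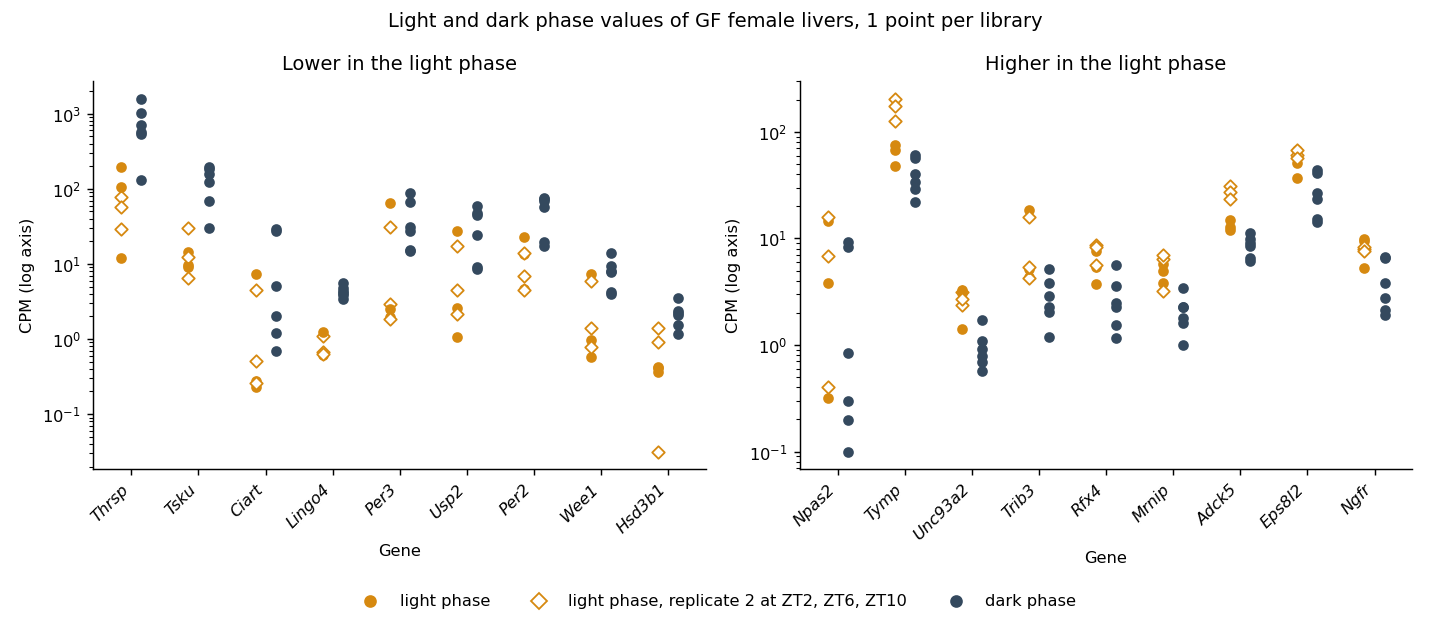
CPM on a log axis of named genes lower in light (left) and higher in light (right), 1 point per GF female library, light phase in orange and dark phase in dark blue. Open diamonds are replicate 2 at ZT2, ZT6 and ZT10, which lie apart from the other light libraries in Tymp and Adck5 and among them in Thrsp, Lingo4 and Wee1.

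The light-dark difference was then compared with that of convR females. It changed in 192 of 16574 genes (1.16%, edgeR interaction contrast, adjusted p under 0.05). In 65 the light minus dark difference was higher in GF than in convR females (0.392%), and in 127 it was lower (0.766%). 9 of the 19 clock genes were among the 192. Per3 differed by -2.45 between light and dark in GF and by 0.19 in convR females, a change of -2.65 ± 0.25 (edgeR adjusted p = 0.000155). For Dbp the difference was -1.24 in GF and 1.42 in convR females (change -2.66 ± 0.35, adjusted p = 0.00169). Dbp's own difference in GF females had an edgeR adjusted p of 0.0466, lost its call in 12 of 22 alternatives (-1.04 (adjusted p = 0.209) without the 3 libraries) and turned to 0.15 (adjusted p = 0.977) in a model of phase without ZT terms. For Ciart it was -2.56 and 0.13 (-2.69 ± 0.43, adjusted p = 0.00812), and for Bhlhe40 -1.70 and 0.06 (-1.76 ± 0.20, adjusted p = 0.000539). Arntl, Clock and Nfil3 changed the other way, by 1.68, 0.79 and 1.25, while Per2 and Tef changed by -1.26 and -1.19, as Per3 did in direction. The change of Per2 was the least firm of these, with an edgeR adjusted p of 0.0385, and it lost its call in 20 of 34 alternatives, with -0.98 (adjusted p = 0.0932) without the 3 GF libraries.

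Among genes outside the clock lists, Fnip2 (which encodes a folliculin-interacting protein) changed by -1.32 ± 0.14, from 0.74 in convR to -0.58 in GF females (edgeR adjusted p = 0.000369). Tspan33, a tetraspanin, changed by 1.56 ± 0.17, from -0.91 to 0.64 (adjusted p = 0.000369), and Camta1, a calmodulin-binding transcription activator, from 0.27 to -1.04 (adjusted p = 0.00155). Tiparp, a target of the aryl hydrocarbon receptor, changed by -0.93 ± 0.13 (adjusted p = 0.00266). Without the 3 GF libraries alone 185 genes were called, of which 95 were among the 192. Per3, Bhlhe40, Fnip2, Tspan33, Camta1 and Tiparp each lost the call in 1 of 34 alternatives, and Ciart and Dbp in 2. The count of 192 was 38 without the libraries of replicate 2 at ZT2, ZT6 and ZT10 in both groups, and 0 when the ZT terms were left out of the model. It ran from 59 (without convR ZT18 replicate 2) to 449 (without GF ZT18 replicate 1), and 18 of the 24 libraries moved it by over 1.5 times.

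Bile acid synthesis held 2 rhythmic genes of 12 (1 without the 3 libraries), against 4.66% of all genes tested (1.61% without the 3). Cyp7a1, the rate-limiting enzyme of the classical pathway (ENSMUSG00000028240, chromosome 4, 6265612 to 6275633, reverse strand), read 59.2 and 35.7 at ZT2, 124 and 162 at ZT6, 169 and 278 at ZT10, 463 and 473 at ZT14, 234 and 325 at ZT18 and 88.2 and 119 at ZT22 CPM. Both ZT14 libraries were the highest and both ZT2 libraries the lowest (amplitude 1.45 ± 0.15, peak ZT14 ± 0.396 h, edgeR adjusted p = 0.000982; 0.00406 without the 3 libraries). In convR females its fitted amplitude was 0.31 (adjusted p = 0.669), and the test of the change gave an adjusted p of 0.25. Hsd3b7, a later enzyme of the pathway, ran opposite, at 489 to 723 CPM with a median of 602 in light and 175 to 440 CPM with a median of 256 in dark (amplitude 0.73 ± 0.12, peak ZT4.36 ± 0.64 h, edgeR adjusted p = 0.0181; 0.0519 without the 3). Of 17 genes of bile acid transport and signalling, 1 was called, which is near the 4.66% of all genes, and 11 in convR females, where 18.9% of all genes were called. It was Slc10a1, the main bile acid uptake carrier, at 252 to 507 CPM with a median of 394 in light and 443 to 608 CPM with a median of 507 in dark (amplitude 0.46 ± 0.08, peak ZT16.1 ± 0.681 h, edgeR adjusted p = 0.0196; 0.15 without the 3).

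Of 25 cholesterol synthesis genes, 1 was called rhythmic, near the 4.66% of all genes, and 0 without the 3 libraries. In convR females 14 were called, where 18.9% of all genes were. The light-dark difference changed against convR females in 3 of the 25 (1.16% of all genes), among them the enzymes Acat2 and Pmvk. All 3 changed towards a lower light minus dark difference in GF. With 12 libraries 1 of the 25 was lower in light, against 1.44% of all genes, and with 9 libraries 2 were, against 0.373%. The median light-dark difference of the list was -0.27, against 0.01 over all genes tested.

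Lipogenesis held 4 rhythmic genes of 19, Mlxipl, Dgat2, Thrsp and Agpat2, and 0 without the 3 libraries, against 4.66% and 1.61% of all genes. In convR females 10 were called, against 18.9% of all genes. The list's median amplitude was 0.75 and its median light-dark difference -0.85, against 0.18 and 0.01 over all genes tested. Dgat2, which makes triglyceride, peaked at ZT15.9 (amplitude 0.45 ± 0.08, edgeR adjusted p = 0.026; 0.196 without the 3), and Mlxipl, the sugar-sensing factor ChREBP, at ZT21.5 (amplitude 0.53 ± 0.10, edgeR adjusted p = 0.0225; 0.127 without the 3). The light-dark difference changed against convR females in 5 of the 19 (1.16% of all genes), all towards a lower light minus dark difference in GF. These were Acaca, Elovl6, Gpam, Dgat2 and Thrsp, and Thrsp went from 0.31 to -3.68 (-3.99 ± 0.63, edgeR adjusted p = 0.00681).

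Of the fatty acid oxidation and of the glucose genes, 3 each were called both with 12 and with 9 libraries. 4 of 29 PPARα and oxidation genes were called with 12 libraries (Ppara, Cpt1a, Acot3 and Pdk4) and 4 with 9, where Vnn1 took the place of Acot3 (4.66% and 1.61% of all genes). Ppara itself, the fasting-activated nuclear receptor, peaked at ZT13.7 (amplitude 0.71 ± 0.10, edgeR adjusted p = 0.00567; 0.0235 without the 3) and Cpt1a, which admits fatty acids to mitochondria, at ZT11.9 (amplitude 0.69 ± 0.13, edgeR adjusted p = 0.0234; 0.0306 without the 3). Pdk4, the kinase that spares glucose, read 14 and 35.6 at ZT2, 6.4 and 9.86 at ZT6, 3.47 and 3.82 at ZT10, 2.6 and 5.26 at ZT14, 11.2 and 15.3 at ZT18 and 27.7 and 23.8 at ZT22 CPM and was lowest at ZT10 and ZT14 (amplitude 1.63 ± 0.15, peak ZT23.2 ± 0.346 h, edgeR adjusted p = 0.000457; 0.00394 without the 3). Of 19 glucose genes 5 were called (4.66% of all genes), 3 without the 3 libraries (1.61%) and 13 in convR females (18.9%). Slc37a4, the glucose-6-phosphate transporter, lay at 76.8 to 192 CPM with a median of 123 in light and 182 to 315 CPM with a median of 281 in dark (amplitude 0.93 ± 0.08, peak ZT16.6 ± 0.345 h, edgeR adjusted p = 0.000457; 0.0108 without the 3). G6pc, the phosphatase it serves, was highest at ZT2 (447 and 991 CPM), with the higher value in ZT2 replicate 2 (amplitude 1.24 ± 0.21, peak ZT23.3 ± 0.633 h, edgeR adjusted p = 0.0161; 0.0613 without the 3).

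Heat shock genes encode chaperones and are known to follow body temperature and feeding. 7 of 26 genes of the heat shock and cold-inducible list were lower and 0 higher in light, against 1.44% and 0.777% of all genes tested. Without the 3 libraries 2 of the 26 were lower, against 0.373% of all genes tested. Of the 7, Hspa4l alone stayed called. The median difference of the list was -0.41. Hsp90aa1, the inducible cytosolic HSP90, read 178 and 127 at ZT2, 88.7 and 182 at ZT6, 104 and 117 at ZT10, 141 and 92.2 at ZT14, 431 and 420 at ZT18 and 257 and 259 at ZT22 CPM. Both ZT18 libraries were the highest, the ZT22 pair came next, and the ZT14 pair lay within the light phase range (-0.95 ± 0.18 (edgeR adjusted p = 0.0275); -1.05 (adjusted p = 0.0613) without the 3). Hspa4l, an HSP110 family member, lay at 29.5 to 44.5 CPM with a median of 36.6 in light and 31.5 to 105 CPM with a median of 72.1 in dark and was called in both fits (-0.86 ± 0.09 (edgeR adjusted p = 0.00205); -0.82 (adjusted p = 0.0463)). Hsph1 (-0.98 ± 0.17 (edgeR adjusted p = 0.0196)), Dnaja1 (-0.72 ± 0.14 (edgeR adjusted p = 0.0366)), Hspa1b (-1.17 ± 0.24 (edgeR adjusted p = 0.0415)) and Hsp90ab1 (-0.40 ± 0.09 (edgeR adjusted p = 0.0488)) were the other chaperones. None of these 4 was called without the 3 libraries, where their differences were -1.06, -0.79, -1.28 and -0.47. Rbm3, an RNA-binding protein induced by cold, was lower in light too (-0.42 ± 0.09 (edgeR adjusted p = 0.0488); -0.35 (adjusted p = 0.308) without the 3). The peaks of 6 genes of this list that were called rhythmic in both female groups differed by a median of 0.416 h, with 4 of 6 later in GF females and a range from -0.817 h (Fkbp4) to 5.49 h (Rbm3). Hsp90aa1 peaked at ZT19.9 in GF and ZT19.5 in convR females.

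The remaining lists are read against the 4.66% of all genes called with 12 libraries and the 1.61% with 9, so counts of 0 or 1 in lists of this size are near the overall share. None of 20 amino acid and urea genes, 22 ribosome biogenesis genes or 21 acute phase genes was called. 1 of 28 xenobiotic receptor targets was called, Cyp2a5, which read 316 and 679 at ZT2, 241 and 418 at ZT6, 1321 and 909 at ZT10, 1624 and 2552 at ZT14, 1124 and 1664 at ZT18 and 946 and 1031 at ZT22 CPM (amplitude 1.26 ± 0.17, peak ZT16 ± 0.524 h, edgeR adjusted p = 0.00638; 0.0337 without the 3 libraries). Close relatives share reads with it, so its level is uncertain between members of the Cyp2a family. 5 of 28 female-biased genes were called, among them Cyp2a4, Acot3, Rdh9 and Lpl, and 2 without the 3 libraries. Of 13 growth hormone and STAT5 genes 2 were called (Stat5a and Stat5b), and 0 without the 3. The lists of proliferation (Rrm2, 18 genes) and of interferon and antigen presentation (H2-Q4, 25 genes) gave 1 each, and iron, heme and oxidative stress gave 2 of 18 (Gclc and Sod2). These lists gave 1, 0 and 0 without the 3 libraries. Of the markers of 12 cell types only Ctrb1 was called rhythmic with 12 libraries and only Cd79a with 9, and none was called in the light-dark comparison. The median light-dark difference was nonetheless 0.54 for B and plasma cell markers, 0.49 for T and NK cell markers, 0.57 for neutrophil and monocyte markers, 0.25 for Kupffer cell markers and -0.46 for cholangiocyte markers, against 0.01 over all genes tested. Their sums overlapped between the phases, at 17.9 to 35.1 CPM in light and 10.2 to 39.9 in dark for B and plasma cells, 4.88 to 10.8 and 5.34 to 7.11 for T and NK cells, and 81.2 to 140 and 53.3 to 154 for neutrophils and monocytes. Kupffer cell markers summed to 499 to 861 CPM in light and 431 to 662 in dark, and cholangiocyte markers to 36.6 to 44.7 and 30.7 to 46.7. No marker of these 5 lists was at 0 in all 12 libraries, and their part in the light-dark results was not tested. The sinusoidal endothelial markers summed to 607 to 634 CPM in the 3 libraries, 517 to 528 CPM in the other light libraries and 410 to 537 CPM in the dark libraries.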

How the data were processed

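Per the labels' protocols, ribosomal RNA was depleted from total liver RNA and libraries were read as paired ends. The authors deposited raw counts per gene in a female and a male table of 38087 genes. The submitters' processing notes name STAR 2.4.0i and mm10, and the sources used here name neither the counting tool nor the annotation, nor how strand and multiply matching reads were handled. Columns were joined to samples by group, ZT and number. Coordinates are GRCm38, GENCODE M21, matched by identifier for 36308 genes, and promoters are RefSeq GRCm38.p6.

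Counts were tested with edgeR 4.0.16 (limma 3.58.1, R 4.3.3) by quasi-likelihood F tests after TMM scaling, on genes kept by filterByExpr (count minimum 10, total minimum 15, ZT cells as groups). Rhythm used a cosine and a sine of 24 h over the 12 libraries of a group. Light against dark used 1 coefficient per ZT. Changes were tested as interactions over 24 libraries. Adjusted p-values are Benjamini-Hochberg values across every gene tested (threshold 0.05), errors of fitted values are SE, and amplitudes and peaks carry delta-method SE. The fits were tested on simulated counts. DESeq2 1.42.0, other scalings and filters and left-out libraries were alternatives, and the median clock peak difference and its alternatives were added after seeing the data.

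The members and gene lists were chosen with earlier results of these data known. Named genes are the 10 lowest adjusted p and 10 largest amplitudes (rhythm), the 10 highest and 10 lowest light-dark differences that kept their sign without the 3 libraries, the 10 lowest adjusted p of each change, all at an average log2 CPM no lower than 0, and list members. Some symbols differ in the deposited table, where Ciart is listed as Gm129. Results of some genes are not reported here.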

Additional observations from a re-analysis of the deposited data

Results flagged for a closer look

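The light-dark difference (log2, light minus dark) of 15 named genes changed between GF and convR females by the interaction test of edgeR (adjusted p under 0.05). The change, GF minus convR, was Per3 -2.65, Fnip2 -1.32, Bhlhe40 -1.76, Camta1 -1.31, Wee1 -1.82, Ttc23 -1.12, Dbp -2.66, Tiparp -0.93, Per2 -1.26, Ciart -2.69 and Tef -1.19 in genes whose light minus dark difference was lower in GF than in convR females. It was Tspan33 1.56, Clock 0.79, Arntl 1.68 and Nfil3 1.25 in genes with the opposite change.

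The 24 h rhythm of 10 named genes changed between GF females and GF males by the edgeR interaction test. The size of the change in the cosine and sine terms, on the log2 scale, was Ciart 2.72, Dbp 3.39, Pcsk4 1.29, Susd4 1.35, Klf10 1.71, Fam214a 0.48, Slc2a5 1.65, Ak4 0.94, Lonrf1 0.87 and Nr1d2 1.31. None of these 10 passed the threshold without GF female replicate 2 at ZT2, ZT6 and ZT10.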

How the results depend on the processing

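Of the alternatives tried on named genes, 3528 kept their side of the threshold, called or not called, and their direction where the test has one. Of the others, 310 lost the call, 135 gained it and 1 reversed. Rhythm tests give a size without a sign, so direction applies to the light-dark tests alone. The reversed one is Dbp, whose light-dark difference was 0.15 (adjusted p = 0.977) in a model of phase without ZT terms, which compares phase means over libraries rather than the mean of log2 ZT levels. RLE size factors, robust dispersions and a count minimum of 50 moved no count by over 1.5 times, except 6 calls in place of 11 with robust dispersions for rhythm between GF sexes, where library size alone also gave 6. Without a filter on low counts the calls were 1207 (rhythm), 1376 (light-dark), 215 (change of rhythm), 1200 (change of light-dark) and 754 (GF females against GF males), and with DESeq2 1738, 836, 272, 596 and 110. Without GF female replicate 2 at ZT2, ZT6 and ZT10 they were 259 (rhythm), 70 (light-dark) and 0 (against GF males). The same omission gave 0 changes of rhythm and 185 changes of light-dark. Without the same libraries in convR females as well, the counts were 1 (change of rhythm) and 38 (change of light-dark). ZT as a factor gave 366 rhythmic genes, an amplitude of at least 0.5 gave 390, a model of phase alone 86 light-dark genes and 0 changes of light-dark, and a log2 difference of at least 1 gave 83. The causes were not tested, apart from fewer libraries or stricter rules by construction.

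Leaving out 1 library at a time gave 374 to 883 rhythmic genes, 86 to 441 light-dark genes, 0 to 247 changes of rhythm, 59 to 449 changes of light-dark and 0 to 56 against GF males, and 1.89 to 2.18 h for the clock genes' median peak difference. For the change of light-dark (192) the libraries that moved the count by over 1.5 times were, in GF females ZT2 replicate 1 337, ZT2 replicate 2 85, ZT6 replicate 1 96, ZT6 replicate 2 400, ZT10 replicate 2 76, ZT14 replicate 2 101, ZT18 replicate 1 449 and ZT22 replicate 1 66, and in convR females ZT2 replicate 1 70, ZT2 replicate 2 67, ZT6 replicate 2 108, ZT10 replicate 1 81, ZT14 replicate 1 78, ZT14 replicate 2 85, ZT18 replicate 1 103, ZT18 replicate 2 59, ZT22 replicate 1 69 and ZT22 replicate 2 83. For the comparison with GF males (11) they were, in GF females ZT6 replicate 1 1, ZT6 replicate 2 0, ZT10 replicate 1 20, ZT10 replicate 2 0, ZT14 replicate 1 6, ZT14 replicate 2 6 and ZT18 replicate 2 56, and in GF males ZT2 replicate 1 25, ZT2 replicate 2 7, ZT6 replicate 2 0, ZT10 replicate 1 0, ZT10 replicate 2 3, ZT14 replicate 1 5, ZT14 replicate 2 4, ZT18 replicate 1 0 and ZT22 replicate 1 7. For the change of rhythm (0), calls appeared without 9 libraries, in GF females ZT2 replicate 1 26, ZT2 replicate 2 4, ZT10 replicate 1 2, ZT14 replicate 2 3, ZT18 replicate 1 247, ZT18 replicate 2 20 and ZT22 replicate 2 2, and in convR females ZT6 replicate 1 1 and ZT6 replicate 2 1.

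To see whether the replicate numbers pair the samples, the difference between the 2 GF female libraries of a ZT was correlated over genes between ZT. Over 15 pairs of ZT these correlations of differences ran from -0.19 to 0.33, with 4 over 0.1. They gave no clear sign of pairing over all ZT, but a weak or partial pairing cannot be told from them. The GF female libraries with high Nnt all carry the number 2. With the replicate block the counts were 702 (rhythm), 347 (light-dark), 0 (change of rhythm), 158 (change of light-dark) and 11 (against GF males). Depth limits genes of a few CPM, and with 2 libraries per ZT the spread between libraries limits what can be called.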
